A study of Mus musculus with 4 samples.

Results

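The receptor by which a T cell recognises antigen is a complex of the T cell receptor (TCR) chains and the CD3 chains, and the transcripts of 7 of its genes are described here by library. They are the CD3 genes Cd247 (the zeta chain), Cd3e (epsilon), Cd3d (delta) and Cd3g (gamma), and the TCR constant genes Trac (alpha), Trbc1 and Trbc2 (beta). They were taken by symbol, and each symbol matched 1 of the 31053 features of the count tables. The libraries hold invariant natural killer T (iNKT) cells of the thymus, sorted by binding of CD1d tetramers that carry PBS57, a lipid antigen. There were 2 libraries from C57BL/6 mice and 2 from Hivep3-/- mice, which lack the zinc finger protein HIVEP3 and had been backcrossed to C57BL/6. All 4 mice were untreated and 8 to 9 weeks old, and each gave 1 library of 5′ single-cell RNA-seq (10x Genomics). CD44low and CD44high cells were mixed at equal numbers during the sort, which sets part of the share of each stage.

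As background, the alpha and beta chains bind antigen but have almost no cytoplasmic part, so signals are passed on by the CD3 chains. Epsilon pairs with gamma and with delta, and zeta pairs with itself. The cytoplasmic tails of all 4 CD3 chains carry the tyrosine motifs (ITAMs) to which the kinase ZAP-70 binds after LCK has phosphorylated them, and the zeta chain carries more of them than any other chain. The zeta pair joins the complex last, and complexes without it reach the cell surface poorly. iNKT cells use a nearly invariant alpha chain with a limited set of beta chains. They pass from a stage 0 precursor, selected among double positive thymocytes, to dividing intermediates and then to effector subsets called iNKT1, iNKT2 and iNKT17 after the cytokine patterns they share with helper T cells.

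By the GENCODE vM21 annotation of GRCm38, the assembly also known as mm10, Cd247 lies on the plus strand at chr1:165788681-165877277. The other CD3 genes are neighbours on chromosome 9. Cd3g lies at chr9:44969572-44980431 on the minus strand, Cd3d follows after 1354 bases at chr9:44981786-44987339 on the plus strand, and Cd3e follows after 11400 bases at chr9:44998740-45009627 on the minus strand. Cd3g and Cd3d therefore start back to back. Trac lies at chr14:54220521-54224206, and Trbc1 (chr6:41538218-41539881) and Trbc2 (chr6:41546730-41548352) are 6848 bases apart, all 3 on the plus strand.

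Trbc1 and Trbc2 can scarcely be told apart in reads from their 5′ ends, which bears on every Trbc value below. Exon 1 holds 375 bases in both genes, of which 374 are identical (99.73%). The only difference is C260A, counted from 1 at the start of exon 1 with the Trbc1 base first. The exons behind it differ more, with 15 of 18 identical bases in exon 2 and 92 of 107 in exon 3. The stretch of exon 1 from base 201 to base 320 is shown for both genes, with the differing base in capitals, because the split of counts between them in this exon rests on that base (chr6:41538418-41538537 for Trbc1 and chr6:41546930-41547049 for Trbc2, both plus strand).
Trbc1: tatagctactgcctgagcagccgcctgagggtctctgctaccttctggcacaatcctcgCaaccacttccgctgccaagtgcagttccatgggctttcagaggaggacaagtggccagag
Trbc2: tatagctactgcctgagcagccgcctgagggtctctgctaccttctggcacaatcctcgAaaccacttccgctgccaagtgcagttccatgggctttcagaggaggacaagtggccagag
The split of UMIs between Trbc1 and Trbc2 is therefore uncertain, and their sum is the safer measure of beta constant transcripts. How reads that match both genes alike were counted cannot be seen in the deposited counts, so the sum may be incomplete as well.

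Of the 7 genes, 4 had an entry in the RefSeq promoter table for GRCm38.p6, all of them CD3 genes. The 250 bases before the start are shown for Cd247 and Cd3e, the pair of genes whose ratio is followed below, with matches to CANNTG (the E-box, the motif of E proteins such as E2A and HEB) in capitals. Cd247 is read at chr1:165788431-165788680 on the plus strand, and Cd3e at chr9:45009612-45009861 on the minus strand. The RefSeq start of Cd3e differs from the GENCODE start given above, so its window takes in the first bases of the GENCODE gene.
Cd247: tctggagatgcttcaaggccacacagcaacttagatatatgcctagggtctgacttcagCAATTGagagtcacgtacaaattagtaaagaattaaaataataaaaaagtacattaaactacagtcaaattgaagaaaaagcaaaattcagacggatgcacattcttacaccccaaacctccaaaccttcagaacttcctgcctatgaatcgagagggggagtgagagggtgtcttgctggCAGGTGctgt
Cd3e: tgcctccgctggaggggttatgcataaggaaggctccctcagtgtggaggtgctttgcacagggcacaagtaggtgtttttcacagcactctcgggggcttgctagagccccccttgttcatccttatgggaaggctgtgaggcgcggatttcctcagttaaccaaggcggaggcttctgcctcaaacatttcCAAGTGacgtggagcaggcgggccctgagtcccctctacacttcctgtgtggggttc
CANNTG was searched on both strands and reads the same on both. It matched 2 times before Cd247, 1 time before Cd3e, 1 time before Cd3d and 3 times before Cd3g, and 66.2% of 32851 promoters of this length held it. G and C made up 41.2% of the Cd247 window and 57.2% of the Cd3e window, against a median of 52.4% over all promoters.

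Of 22279 barcodes, 19647 passed the filters on genes, UMIs (unique molecular identifiers, each standing for 1 captured RNA molecule) and mitochondrial share. The libraries held 31381738 to 48291764 UMIs, and kept cells were shallower in C57BL/6 (medians of 4596 and 5268 UMIs per cell) than in Hivep3-/- (6833 and 6491). Between 1.97% and 2.62% of a library's barcode sequences also occurred in another library. The 5 classes used were stage 0-like (1266 cells), cycling-like (2564), iNKT2-like (2725), iNKT17-like (609) and iNKT1-like (10635), and 918 interferon-like and 930 unnamed cells were kept out of them. The members were left out of the genes used for clustering. In every library the summed level of each of the 5 marker lists was highest in the class named from it. As clusters were named from the same markers, this was largely fixed in advance and is no check of the names. The margin was wide for stage 0 (5200 to 6550 CPM in stage 0-like cells against 394 to 617 in iNKT1-like cells). It was least for iNKT2, at 1590 to 2170 CPM in iNKT2-like cells against 1320 to 1570 in iNKT17-like and 1020 to 1620 in cycling-like cells. Libraries differed in sex-linked transcripts. C57BL/6 replicate 1 had 14609 UMIs of Xist and 0 of 4 Y-linked genes, whereas the other libraries had 3 to 25 of Xist and 3568 to 4879 of the Y-linked genes. The study describes female C57BL/6 mice for these cells and mice of both sexes in its methods, so C57BL/6 replicate 2, with Y-linked UMIs, goes against the former. Hivep3 itself was at 38.5 and 36.4 CPM in C57BL/6 and 101 and 68.0 CPM in Hivep3-/- libraries, and as the sources used here do not give the deleted part of the gene, its counts do not check the genotype labels.

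Levels are CPM, a gene's UMIs per 1000000 UMIs of a library's cells in a class. In 5′ libraries each molecule gives 1 UMI whatever its length, so levels of different genes were compared without dividing by length. For the order of stages the 20 sums of 4 libraries by 5 classes were scaled together, and the values are a description, since the classes were built from the same cells.

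The subunits did not all follow the same order across iNKT stages. Cd247 was lowest in stage 0-like and highest in iNKT2-like cells in 4 of 4 libraries, with a mean of 176 CPM (SD 71.8, n = 4 libraries) against 684 CPM (SD 360), a 3.89-fold range. The fold between these classes was 2.96 and 3.62 in C57BL/6 and 4.05 and 4.4 in Hivep3-/- mice. In between came iNKT1-like (245 CPM), cycling-like (374 CPM) and iNKT17-like cells (412 CPM). The last pair did not separate, with a log2 difference of cycling-like from iNKT17-like cells of -0.10 ± 0.16 (mean ± SD, n = 4 libraries) and the opposite sign in 1 of 4 libraries. Every other pair of neighbours in this order had the same sign in all 4 libraries.

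Cd3e, which takes part in both epsilon pairs, had another order. It was lowest in cycling-like cells (903 CPM, SD 91.5) and highest in iNKT1-like cells (1682 CPM, SD 75.3) in 4 of 4 libraries, with stage 0-like (1120 CPM), iNKT2-like (1380 CPM) and iNKT17-like cells (1405 CPM) between them. iNKT2-like and iNKT17-like cells differed by -0.03 ± 0.06 on the log2 scale and changed places in 2 of 4 libraries. Cd3g was also highest in iNKT1-like cells in 4 of 4 libraries (1823 CPM), and stage 0-like and cycling-like cells, at 1063 and 1091 CPM, did not separate (log2 difference -0.04 ± 0.15, with stage 0-like cells higher in 1 of 4 libraries). Cd3d varied least, from 1090 CPM in cycling-like to 1378 CPM in iNKT2-like cells (1.26-fold), and was highest in iNKT2-like cells in 4 of 4 libraries. In iNKT1-like cells, Cd247 thus stood at 245 CPM beside 1245 to 1823 CPM of the other CD3 genes.

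UMIs given to the TCR constant genes moved in opposite directions with stage. Whole chains, counted with their other segments, are given below, and the alpha chain did not follow Trac in every library. Trac was lowest in cycling-like cells (140 CPM, SD 37.1) and highest in iNKT1-like cells (282 CPM, SD 76.9) in 4 of 4 libraries. Trbc1 and Trbc2 were highest in stage 0-like cells in 4 of 4 libraries, at 335 CPM (SD 108) and 1014 CPM (SD 318). Trbc2 was lowest in iNKT1-like cells in 4 of 4 libraries (369 CPM, SD 113) and Trbc1 in 3 of 4 (93.6 CPM, SD 22.4). Fold ranges over the classes were 2.02 for Trac, 3.58 for Trbc1 and 2.75 for Trbc2. Between neighbours in the order of Trbc1, the iNKT2-like and iNKT17-like cells did not separate (0.07 ± 0.30 on the log2 scale), nor did iNKT17-like and iNKT1-like cells (0.33 ± 0.35), each pair keeping its order in 3 of 4 libraries, while for Trbc2 each neighbour kept its place in 4 of 4 libraries.

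**Figure D1:**
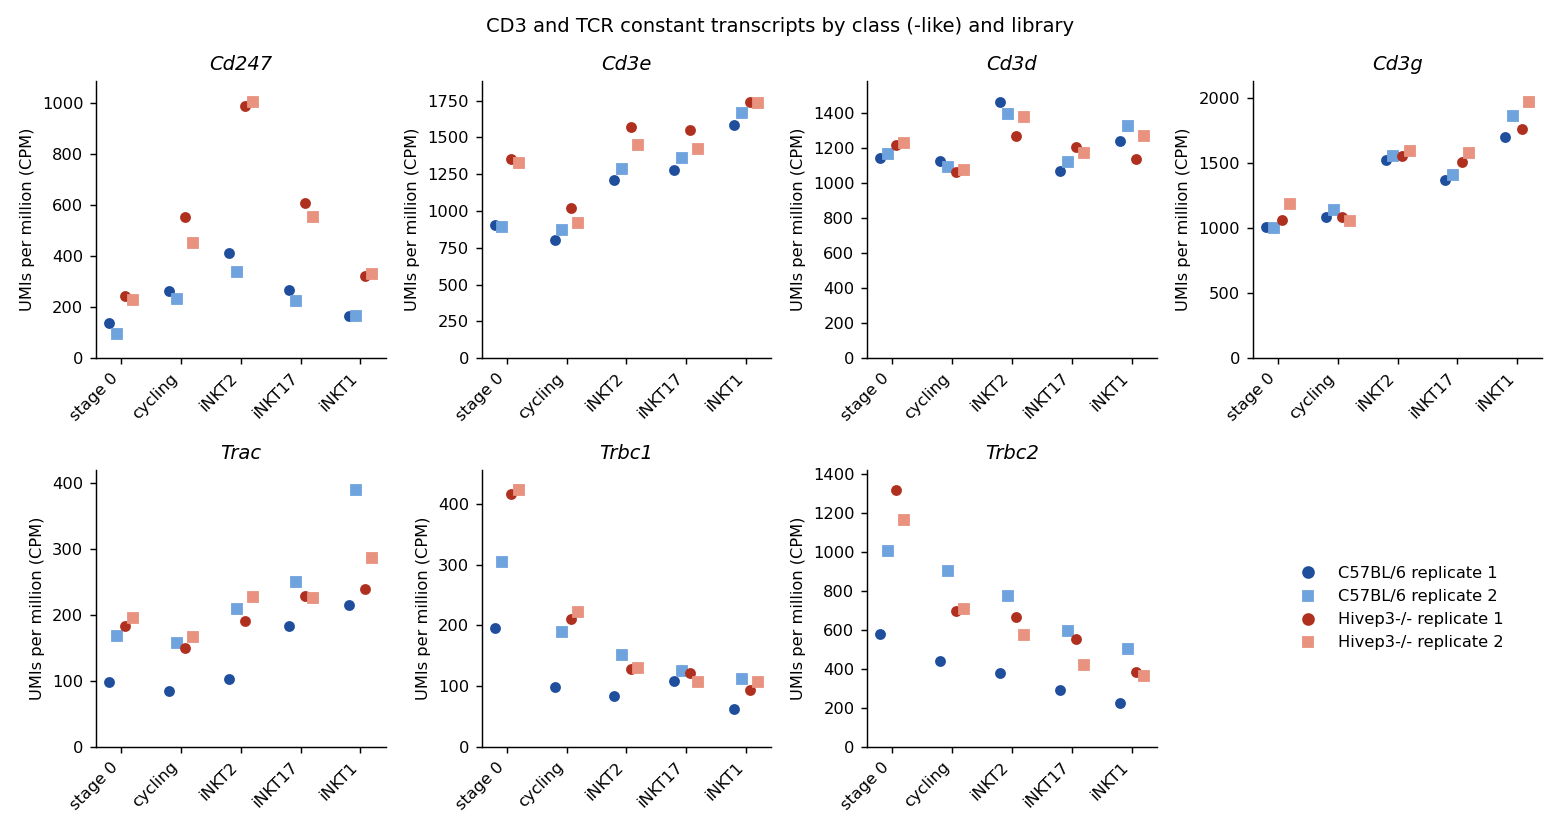
Level of each of the 7 genes (vertical axis, CPM on a linear scale from 0) in the 5 named classes (horizontal axis), with 1 point per library, blue for C57BL/6 and red for Hivep3-/-, circles for replicate 1 and squares for replicate 2. Cd247 peaks in iNKT2-like cells with the Hivep3-/- points above the C57BL/6 points in every class, Cd3e and Cd3g rise towards iNKT1-like cells, and Trbc1 and Trbc2 fall from stage 0-like cells onwards.

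Over the 20 sums, the log2 levels of Trbc1 and Trbc2 had a Pearson r of 0.91, Cd3e and Cd3g 0.86, and Cd3e and Trac 0.78, whereas Cd247 reached no more than 0.30 with any other member. These correlations are descriptions without a test, since sums of 1 library share its depth and its mouse. Among the 5302 genes whose mean reached 20 CPM, the genes most like Cd247 over the same 20 sums were Cd9 (r = 0.844), Ubash3b (0.788), S1pr1 (0.785), Gtf2ird1 (0.774) and Coq9 (0.772). Those most like Cd3e were Pcmtd1 (0.943), Samsn1 (0.927), Ptpn22 (0.914), Btg2 (0.911) and Arhgef3 (0.909), and those most like Trac were Pde7a (0.861), Fam173a (0.86), Slc25a40 (0.858), Birc2 (0.834) and Rnasek (0.827). Ubash3b and Ptpn22 encode phosphatases that dampen TCR signals, and both were on a list of TCR partners described below.

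Cd247 was the member whose level differed between genotypes. It was higher in both Hivep3-/- libraries than in both C57BL/6 libraries in all 5 classes, by 0.98 to 1.43 on the log2 scale, and was called (adjusted p under 0.05) in 4 of them. No other member was called in any class. The comparison asks whether loss of HIVEP3 alters receptor transcripts, and it was made on UMIs summed per library and class with edgeR's quasi-likelihood test, adjusted by Benjamini-Hochberg over all genes of the class. CPM in these comparisons were scaled within each class and so differ a little from the levels above. The study chose Cd247, Trac, Trbc1 and Trbc2 on these same libraries, so their direction is not independent evidence.

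In iNKT2-like cells, Cd247 was at 373 and 308 CPM in C57BL/6 replicates 1 and 2 and at 910 and 926 CPM in Hivep3-/- replicates 1 and 2. The difference was 1.43 on the log2 scale (SE 0.14, 2.69-fold, adjusted p 0.00582, n = 2 per genotype), the highest of any class. In iNKT17-like cells the levels were 269 and 221 CPM against 612 and 554 CPM (log2 1.25, SE 0.17, adjusted p 0.0154). These are the classes in which fewest genes of any kind were called higher, namely 0.116% and 0.0658% of those tested, and Cd247 ranked 7 and 5 by p in them. In both classes each Hivep3-/- library stood above each C57BL/6 library. Within iNKT2-like cells the summed iNKT2 markers were at 2170 and 2160 CPM against 1770 and 1590 CPM and the iNKT1 markers at 607 and 820 CPM against 1230 and 1120 CPM, and their part in the result was not tested.

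In cycling-like cells, Cd247 was at 263 and 233 CPM against 562 and 454 CPM (log2 1.03, SE 0.14, adjusted p 0.0162), in a class where 1.46% of genes were called higher. The summed iNKT1 markers moved with genotype in this class, from 518 and 569 CPM to 2520 and 1840 CPM, and their part in the result was not tested. In iNKT1-like cells the levels were 152 and 152 CPM against 295 and 305 CPM (log2 0.98, SE 0.12, adjusted p 0.0164), beside 0.54% of all genes. This call rested on all 4 libraries, since leaving out any of them brought the adjusted p to between 0.0508 and 0.138 while the difference stayed between 0.96 and 1.02. Without C57BL/6 replicate 2 the call in cycling-like cells was lost as well (log2 0.94, adjusted p 0.0711). The iNKT17-like call was lost where cells were thinned to 2000 UMIs each (log2 1.16, adjusted p 0.0705).

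In stage 0-like cells, Cd247 had 163 and 112 CPM against 291 and 270 CPM (log2 0.997, SE 0.19), but the adjusted p of 0.0511 missed the threshold. DESeq2 called it (adjusted p 0.0202), as did 13 of 17 alternatives in all, but without C57BL/6 replicate 2 the difference was 0.77 and the adjusted p 0.166. The C57BL/6 values rest on few molecules here, 246 and 82 UMIs, as against 786 and 691 in the Hivep3-/- libraries. Over all cells the levels were 249 and 201 CPM against 416 and 425 CPM (log2 0.90, SE 0.14, adjusted p 0.0572), not called either. Background shares of genes called higher were 0.124% in stage 0-like cells and 0.439% over all cells.

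**Figure D2:**
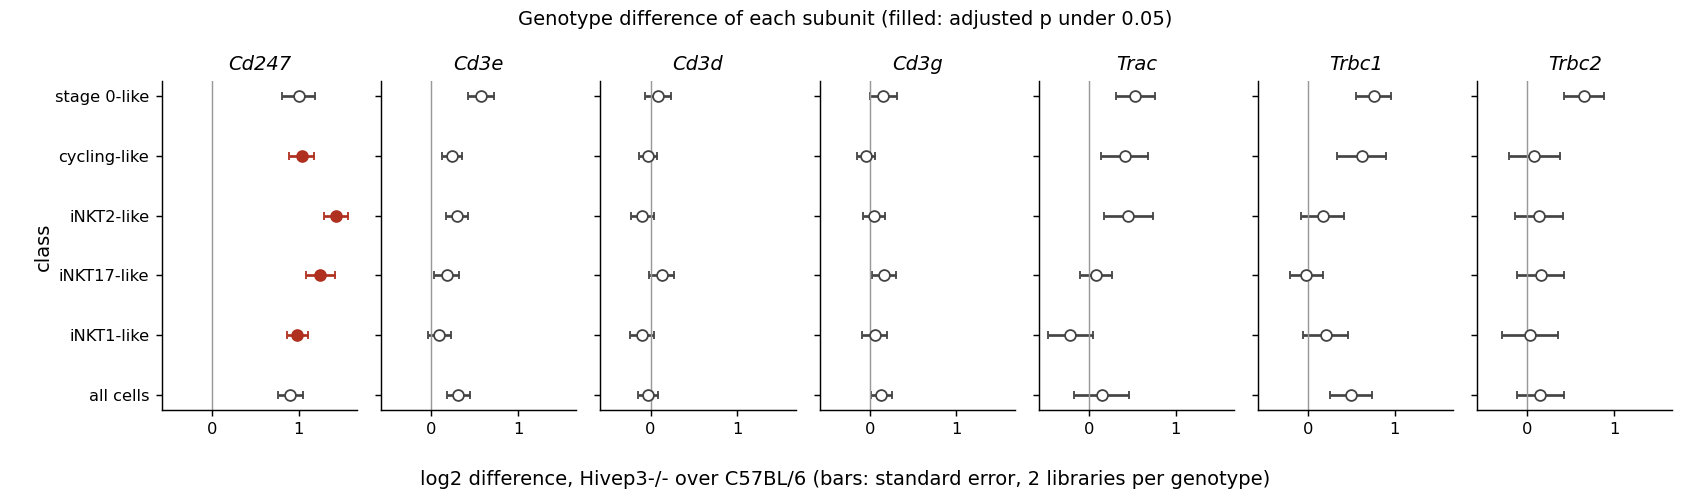
Genotype difference of each gene (horizontal axis, log2 of Hivep3-/- over C57BL/6, bars 1 standard error, 2 libraries per genotype) in the 5 classes and over all cells (vertical axis), 1 panel per gene. Filled red points passed an adjusted p of 0.05. Only Cd247 has filled points, in 4 classes, at 0.98 to 1.43.

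The difference in Cd247 was present within clusters as well. Of 12 clusters with at least 1000 Cd247 UMIs, both Hivep3-/- libraries were above both C57BL/6 libraries in 12, on unscaled CPM. Cd3e, called in no class, met the same criterion in each of these clusters. Without scaling, all genes leaned towards Hivep3-/-, with median log2 differences of 0.074 to 0.185 in the 5 classes. The share of all genes that met the criterion was not computed, and the clusters come from the same 4 mice. In the main iNKT1-like cluster, led by Dusp1 and Klrb1c, Cd247 was at 161 and 157 CPM against 425 and 438 CPM. In the late iNKT1-like cluster led by Ccl5 and Gzma, genes of cytotoxic effector cells, it was at 142 and 131 CPM against 226 and 217 CPM. The main cluster held 60.1% of C57BL/6 and 30.2% of Hivep3-/- iNKT1-like cells, and the late cluster 13.1% and 30.1%. In the main cluster alone the log2 difference of Cd247 was 1.36 (adjusted p 0.0115), compared with 0.98 for the whole class. Likewise, in the largest cycling-like cluster alone it was 1.35 (adjusted p 0.00432). Both settings were chosen after seeing the data. The interferon-like cluster (164 and 166 against 367 and 358 CPM) and the unnamed cluster led by Tnni1 (201 and 144 against 473 and 388 CPM) had the same direction.

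**Figure D3:**
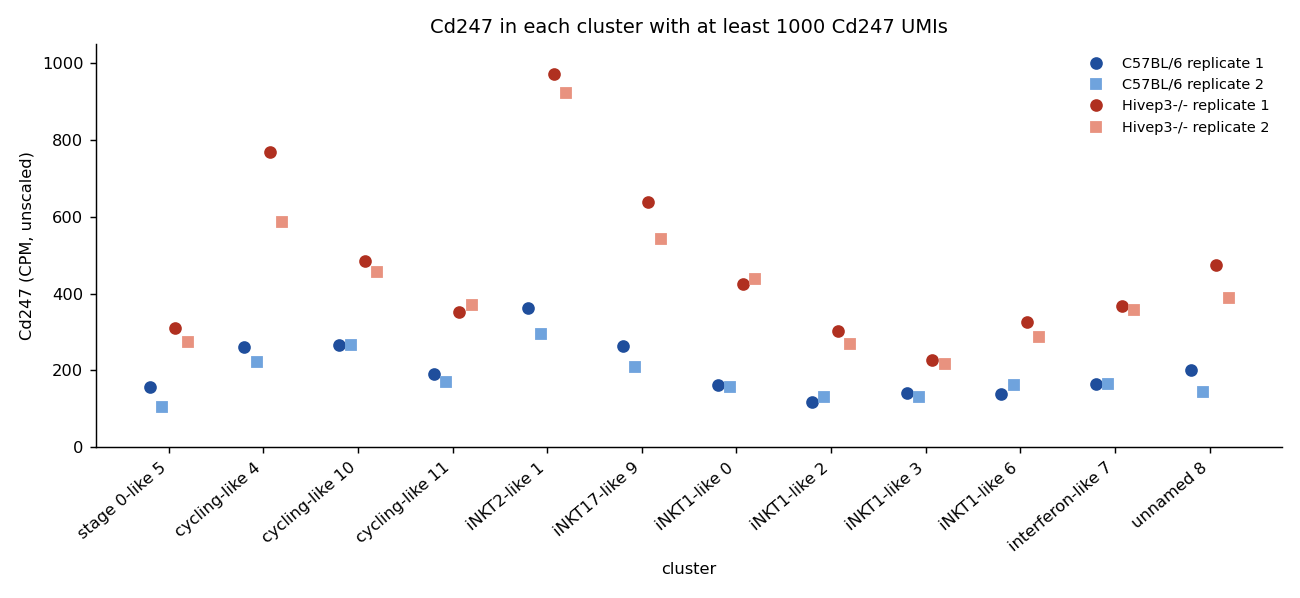
Cd247 level (vertical axis, unscaled CPM from 0) in each of the 12 clusters with at least 1000 Cd247 UMIs (horizontal axis, class and cluster number), 1 point per library. Red points, for Hivep3-/-, lie above both blue points, for C57BL/6, in each cluster.

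Cd247 was also expressed per molecule of Cd3e within a library, a ratio that does not depend on how libraries are scaled. In iNKT2-like cells there were 0.340 and 0.262 Cd247 UMIs per Cd3e UMI in C57BL/6 and 0.626 and 0.693 in Hivep3-/- libraries. The ratio was 0.209 and 0.163 against 0.390 and 0.389 in iNKT17-like cells, and 0.104 and 0.098 against 0.184 and 0.190 in iNKT1-like cells. Cycling-like cells had 0.328 and 0.267 against 0.540 and 0.489. Genotypes stood apart in each of these classes, by 0.80 to 1.14 on the log2 scale. The smallest gap was in stage 0-like cells, at 0.153 and 0.105 against 0.180 and 0.172 (log2 0.47), where Cd3e itself was higher in Hivep3-/-. With 2 libraries per genotype the smallest p that a two-sided exact permutation test can give is 1 in 3, and each of these ratios reached it (0.545 after Benjamini-Hochberg adjustment over 54 ratio comparisons). No ratio can therefore pass this permutation test with 4 libraries.

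Cd247 made up a small part of CD3 UMIs at every stage. Its mean share was 3.65% in C57BL/6 and 6.01% in Hivep3-/- stage 0-like cells, 7.50% and 13.8% in the cycling-like class, 8.14% and 18.4% among iNKT2-like cells, 6.06% and 12.1% among iNKT17-like cells, and 3.38% and 6.34% for the iNKT1-like class. The SD over the 2 libraries of a genotype was at most 1.36 percentage points. Cd3e, Cd3d and Cd3g shared the rest in more even parts, between 23.0% and 37.1% each in every library and class.

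**Figure D4:**
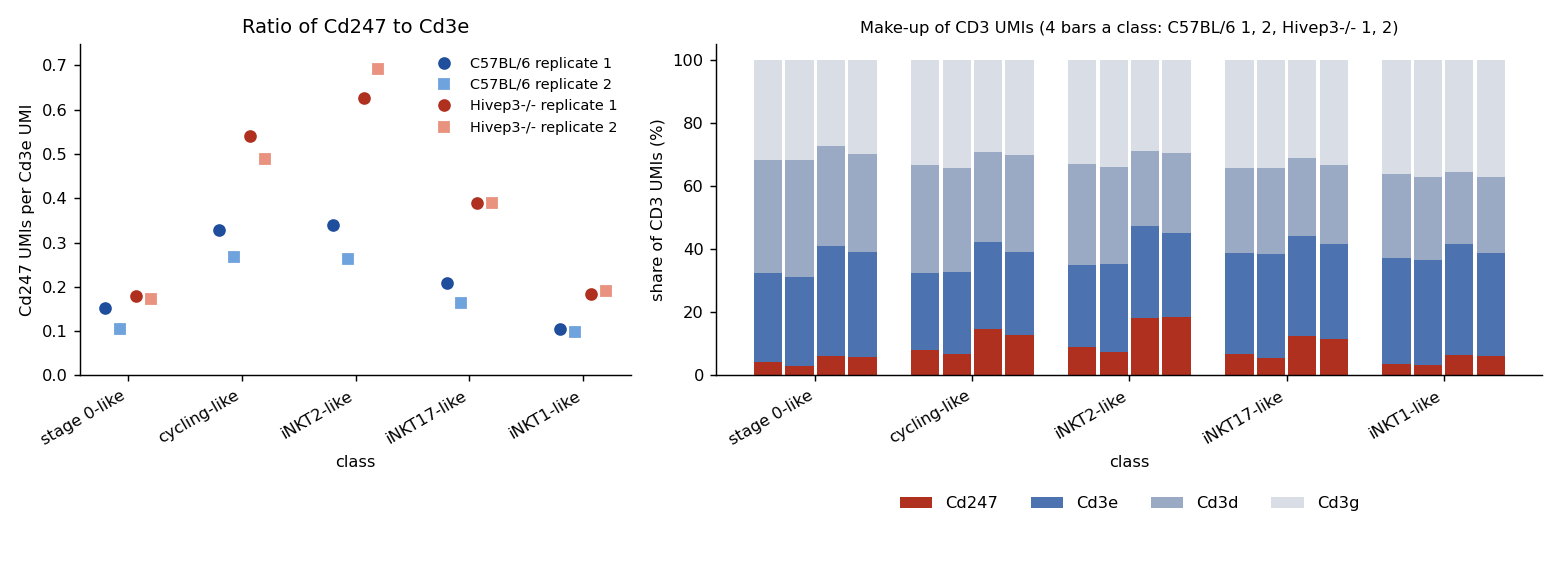
Left, Cd247 UMIs per Cd3e UMI (vertical axis) in each class, 1 point per library. Right, share of CD3 UMIs (percent, stacked to 100 by construction) taken by Cd247, Cd3e, Cd3d and Cd3g, with 4 bars per class for the C57BL/6 and then the Hivep3-/- libraries. The red part, Cd247, grows from 8.14% to 18.4% of CD3 UMIs in iNKT2-like cells.

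The other CD3 genes differed less. Cd3e was higher in both Hivep3-/- libraries in all 5 classes, but by 0.09 to 0.57 on the log2 scale and with no call. Its widest gap was in stage 0-like cells, with 1069 and 1074 CPM against 1618 and 1574 CPM (log2 0.57, SE 0.15, adjusted p 0.18). Under the same test it was called in 3 of 17 alternatives. Cd3d differed by -0.10 to 0.13 and Cd3g by -0.04 to 0.16 over the classes, and the smallest adjusted p for either was 0.85. In stage 0-like cells Cd3d was at 1351 and 1402 CPM against 1459 and 1456 CPM, and Cd3g at 1189 and 1204 CPM against 1270 and 1401 CPM.

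Cd3d per Cd3e was lower in both Hivep3-/- libraries in all classes but iNKT17-like. There were 1.26 and 1.30 Cd3d UMIs per Cd3e UMI against 0.902 and 0.925 in stage 0-like cells, and 0.786 and 0.796 against 0.653 and 0.733 in iNKT1-like cells (exact permutation p 1 in 3, the smallest possible, in both). In iNKT17-like cells the libraries overlapped, with 0.835 and 0.823 against 0.777 and 0.826. Cd3g per Cd3e was also lower in stage 0-like (1.11 and 1.12 against 0.785 and 0.890), cycling-like and iNKT2-like cells, and overlapped in the other 2 classes. Between Cd3d and Cd3g, whose starts lie back to back, the ratio overlapped between genotypes in 3 of 5 classes and was 1.14 and 1.16 against 1.15 and 1.04 in stage 0-like cells.

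All 7 members were higher in both Hivep3-/- libraries in stage 0-like cells, where 19.7% of all genes tested were. In cycling-like cells 3 members were (24.8% of all genes), in iNKT2-like cells 3 (20.4%), in iNKT17-like cells 4 (18.2%), in iNKT1-like cells 2 (19.3%) and over all cells 4 (23.6%). At an unadjusted p under 0.05 there were 5 members in stage 0-like cells, where edgeR called 0 and DESeq2 1, and 8.54% of all genes tested were under it. Over all cells edgeR called 0, DESeq2 1, and 1 had an unadjusted p under 0.05, beside 12% of all genes. The median log2 difference of the members was 0.57 in stage 0-like cells, against 0.02 over all genes tested, and 0.06 to 0.23 in the other classes.

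The TCR constant genes differed between the C57BL/6 libraries, and which of them was the unusual one cannot be told. Trac in iNKT1-like cells was at 199 CPM in C57BL/6 replicate 1 and 361 CPM in C57BL/6 replicate 2. The Hivep3-/- libraries lay between them at 219 and 264 CPM (log2 -0.21, SE 0.26, adjusted p 0.887). Trbc2 in the same class was at 209 and 465 CPM in C57BL/6 and 354 and 335 CPM in Hivep3-/- (log2 0.03, SE 0.32, adjusted p 0.987). C57BL/6 replicate 1 was the lowest of the 4 libraries for Trac and Trbc2 in 5 of 5 classes and for Trbc1 in 4 of 5. From replicate 1 to replicate 2 of C57BL/6 the level differed 1.36- to 2.04-fold for Trac, 1.14- to 1.95-fold for Trbc1 and 1.77- to 2.23-fold for Trbc2. The same fold was 1 to 1.09 for Cd3e, 0.954 to 1.07 for Cd3d and 1.01 to 1.1 for Cd3g. Cd247 went the other way, at 0.688 to 1, and was lowest in replicate 1 in 1 of 5 classes. C57BL/6 replicate 1 carried Xist and no Y-linked UMIs, and the part of that in the TCR values was not tested.

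The genotype differences of these genes depended on which C57BL/6 library was kept. In stage 0-like cells Trac was at 116 and 203 CPM against 219 and 232 CPM (log2 0.54, SE 0.23, adjusted p 0.541). Trbc1 was at 231 and 367 CPM against 499 and 501 CPM (log2 0.76, SE 0.20, adjusted p 0.196), and Trbc2 at 681 and 1206 CPM against 1572 and 1378 CPM (log2 0.65, SE 0.23, adjusted p 0.41). Both Hivep3-/- libraries were above both C57BL/6 libraries for all 3. Without C57BL/6 replicate 1 the differences shrank to 0.15, 0.44 and 0.29. Without C57BL/6 replicate 2 they grew to 0.95, 1.11 and 1.11, and Trbc1 and Trbc2 were then called (adjusted p 0.0172 and 0.0308). In iNKT2-like cells Trac stood at 93.5 and 191 CPM against 176 and 210 CPM, which overlapped (log2 0.46, SE 0.28, adjusted p 0.708), and it was called without C57BL/6 replicate 2. Over the 5 classes Trac differed by -0.21 to 0.54, Trbc1 by -0.02 to 0.76 and Trbc2 by 0.03 to 0.65.

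The V, D and J segments, which encode the rest of the same chains, were also lowest in C57BL/6 replicate 1. In stage 0-like cells the alpha V and J segments together had 270 and 334 CPM in C57BL/6 and 384 and 372 CPM in Hivep3-/-, and the beta segments 1950 and 2430 CPM against 2980 and 2710 CPM. In iNKT1-like cells the beta segments had 1160 and 1670 CPM against 1650 and 1600 CPM. A TCR transcript begins with its V segment, so in a 5′ library a UMI is given to the constant gene only where its reads reach that far. Trac took 30% and 37.8% of alpha UMIs in C57BL/6 stage 0-like cells and 36.3% and 38.4% in Hivep3-/-, and 52.8% and 59.3% against 50.0% and 55.3% in iNKT1-like cells. The beta constant genes went the other way, with 31.9% and 39.3% of beta UMIs against 41.0% and 41.0% in stage 0-like cells and 18.6% and 25.4% against 21.0% and 21.3% in iNKT1-like cells. Part of the stage differences of the constant genes thus lies in these shares. The whole alpha chain had 385 and 537 against 602 and 603 CPM in stage 0-like cells, and 376 and 609 against 438 and 477 CPM in iNKT1-like cells. For the whole beta chain the values were 2860 and 4000 against 5050 and 4590 CPM, and 1430 and 2240 against 2090 and 2030 CPM. On these values the whole alpha chain was higher in iNKT1-like than in stage 0-like cells in C57BL/6 replicate 2 alone, so the rise of Trac need not be one of the chain. The whole beta chain was lower in iNKT1-like cells in every library. These totals were scaled within each class, unlike the stage levels above, which limits their comparison between stages.

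Ratios within the TCR varied with stage more than with genotype. They rest on the constant genes alone, whose share of a chain's UMIs also changed with stage. Trac per Trbc1 and Trbc2 together went from 0.127 and 0.129 in C57BL/6 stage 0-like cells (0.106 and 0.123 in Hivep3-/-) to 0.747 and 0.635 in iNKT1-like cells (0.498 and 0.609). Trbc2 per Trbc1 lay between 2.69 and 5.20 over all libraries and classes. It stood apart by genotype in cycling-like cells alone among the 5 classes, at 4.50 and 4.76 against 3.29 and 3.17 (exact permutation p 1 in 3, the smallest possible), within the uncertainty of the split noted above. TCR constant UMIs per UMI of Cd3e, Cd3d and Cd3g overlapped between genotypes in every class, with 0.285 and 0.483 against 0.527 and 0.476 in stage 0-like cells and 0.111 and 0.206 against 0.155 and 0.152 in iNKT1-like cells.

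**Figure D5:**
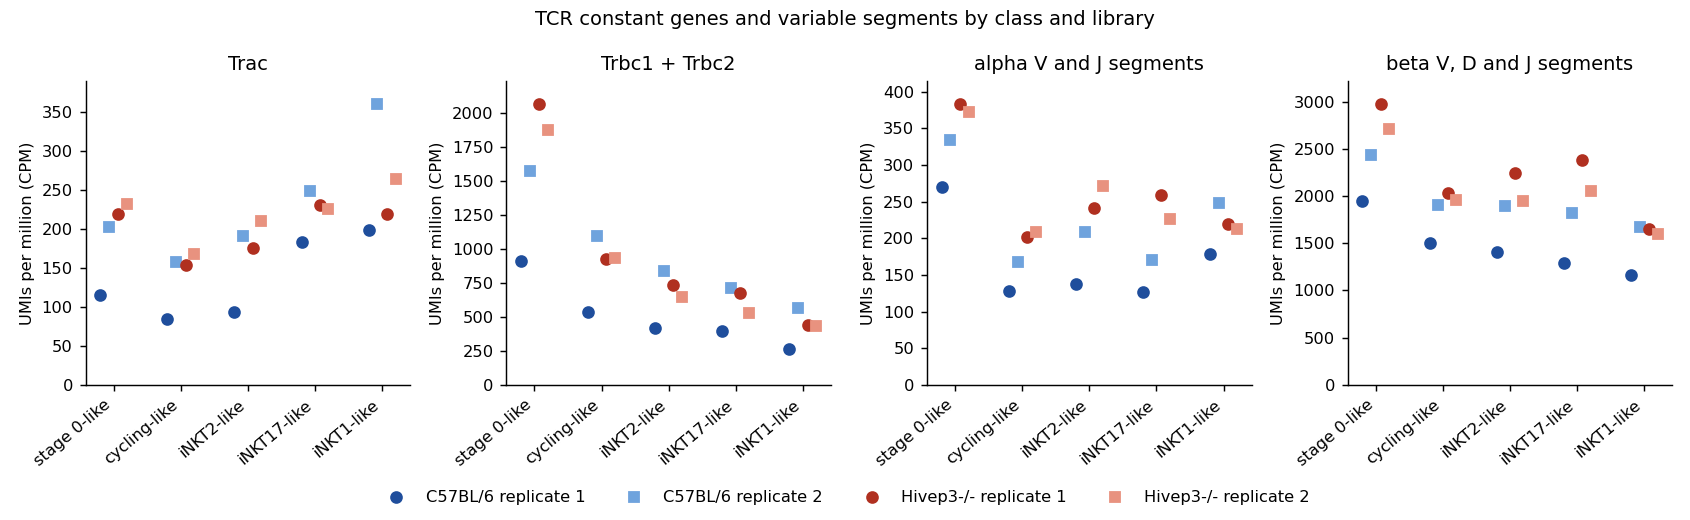
Levels (vertical axes, CPM from 0) of Trac, of Trbc1 and Trbc2 summed, of alpha V and J segments and of beta V, D and J segments in the 5 classes, 1 point per library. The dark blue circles, C57BL/6 replicate 1, are the lowest point of every class in each panel, and the light blue squares, C57BL/6 replicate 2, lie above the red Hivep3-/- points in iNKT1-like cells.

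Whether the genotype difference of a member changed with stage was tested in a single model over the 20 sums, with library as a block and 4 genotype by class terms. Since library is a block, a level shift shared by all classes of a library drops out. The terms together were called for Trac (adjusted p 0.00141), Cd3e (0.00239), Trbc2 (0.00627) and Trbc1 (0.00687), and 9.61% of all genes passed the same test. Cd247 (0.0591), Cd3d (0.193) and Cd3g (0.292) missed the threshold. Sums of different classes from 1 mouse share that mouse, and 4 mice in all stand behind these tests.

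By single terms against iNKT1-like cells, 3 members were called with a larger difference in stage 0-like cells, where 1.23% of genes were. The genotype difference was larger there by 0.47 for Cd3e (SE 0.08, adjusted p 0.00103), by 0.70 for Trac (SE 0.14, adjusted p 0.00546) and by 0.55 for Trbc2 (SE 0.11, adjusted p 0.00597). For Trbc1 the term was 0.51 (SE 0.15, adjusted p 0.0616), and for Cd247 it was 0.005 (SE 0.14, adjusted p 1). Over 13 alternatives this term of Cd247 ran from -0.22 to 0.59 and was called in 1. Trac also passed in the cycling-like class (0.60, SE 0.12, adjusted p 0.0024, beside 4.57% of genes) and in iNKT2-like cells (0.66, SE 0.12, adjusted p 0.00355, beside 0.845%). Among iNKT17-like cells 0 members were called by edgeR, 1 had an unadjusted p under 0.05 (Cd3d, 0.213, SE 0.087), and 0.291% of genes were called. For Cd247 the term of iNKT2-like cells was 0.43 (SE 0.12, adjusted p 0.0684), called in 6 of 13 alternatives. The joint test of Trac was called in 14 of 14 alternatives. That of Cd3e was lost without either C57BL/6 library, that of Trbc1 without C57BL/6 replicate 1 and that of Trbc2 without C57BL/6 replicate 2. Those of Trbc1 and Trbc2 were also lost with no correction between libraries before clustering. The iNKT1-like class, the reference of the single terms, changed in make-up with genotype. Its main cluster held 60.1% of the class in C57BL/6 and 30.2% in Hivep3-/-, and its late cluster 13.1% and 30.1%. Pooled unscaled levels there were 1730 and 1410 CPM for Cd3e, 293 and 195 for Trac, and 367 and 294 for Trbc2. The interaction was not run within a single cluster, so the part of this shift was not tested.

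Genes that work with the receptor were counted from lists chosen for their roles. Among 21 partners and modulators of the complex (17 of them tested in iNKT17-like cells), 1 rose in stage 0-like cells, 2 rose and 2 fell in cycling-like cells, 1 fell in iNKT2-like cells, 0 were called in iNKT17-like cells (2 at an unadjusted p under 0.05, 0 by DESeq2), and 1 rose and 1 fell in iNKT1-like cells. Of all genes tested, the shares called higher are those given with Cd247, and the shares called lower were 0.349% for the stage 0-like class, 1.43% for cycling-like cells, 0.284% for the iNKT2-like class, 0.0395% for iNKT17-like cells and 0.214% for the iNKT1-like class. Ubash3b, a phosphatase that restrains TCR signalling, was at 11.96 and 12.3 CPM against 76.6 and 84.5 CPM in stage 0-like cells (log2 2.73, SE 0.25, adjusted p 0.00107) and at 38.6 and 32.7 against 111 and 114 CPM in cycling-like cells (log2 1.65, adjusted p 0.00377). In cycling-like cells the adhesion receptor Cd2 rose (log2 0.93, adjusted p 0.0144) and the adaptor Sit1, an inhibitor of TCR signalling, fell by 0.93 on the log2 scale (adjusted p 0.0251).

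Among the co-receptor genes, Cd4 fell in 3 classes and Cd8a rose in 1, while Cd8b1 was called in none. Cd4 was at 32.02 and 30.7 CPM against 5.01 and 4.32 CPM in iNKT1-like cells (log2 -2.74, SE 0.17, adjusted p 0.00153), at 82.8 and 74.6 against 40.8 and 30.3 CPM in iNKT2-like cells (log2 -1.15, adjusted p 0.0466) and at 62.1 and 59.4 against 22.2 and 15.1 CPM in cycling-like cells (log2 -1.73, adjusted p 0.0109). Cd8a was at 1.46 and 1.39 CPM against 18.4 and 16.4 CPM in iNKT1-like cells (log2 3.60, SE 0.23, adjusted p 0.00153). Cd8b1, the other chain of the CD8 co-receptor, was at 2.67 and 1.76 CPM against 2.14 and 2.81 CPM in the same cells, and the genotypes overlapped (log2 0.14, SE 0.36, adjusted p 0.962). Summed markers of double positive thymocytes were at 4.6 and 3.88 CPM against 22.3 and 19.3 CPM there, but the list holds Cd8a, which makes up most of that difference, so the sum is no separate measure.

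Fcer1g and Tyrobp encode ITAM adaptors that pair with receptors of natural killer cells, and the product of Fcer1g can stand beside the zeta chain in receptor complexes. Fcer1g was at 24.7 and 29.6 CPM against 308 and 314 CPM in cycling-like cells (log2 3.53, SE 0.15, adjusted p 0.000432), the class in which iNKT1 markers, a list that holds Fcer1g, also rose. In iNKT1-like cells it was at 348 and 382 CPM against 607 and 822 CPM (log2 0.97, SE 0.17, adjusted p 0.0693). Tyrobp rose in iNKT1-like cells from 18.6 and 18.1 CPM to 81.0 and 74.6 CPM (log2 2.08, SE 0.14, adjusted p 0.00153). Both genes were among the lead genes of the late iNKT1-like cluster, which held 13.1% of the class in C57BL/6 and 30.1% in Hivep3-/-. The part of that shift was not tested. Hcst, the remaining gene of 3 listed as ITAM adaptors, was called in no class (log2 -0.036 in iNKT1-like and 0.065 in cycling-like cells). In stage 0-like cells Fcer1g had 152 and 85.0 CPM against 49.2 and 56.3 CPM (log2 -1.21, SE 0.24, adjusted p 0.0684), the opposite direction to Cd247.

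Of 20 kinases and adaptors that act directly after the receptor, among them Lck, Zap70 and Lat, edgeR called 0 of the 18 to 20 tested in any class, with 0 to 5 at an unadjusted p under 0.05 (beside 5.63% to 17.8% of all genes in the 5 classes), and DESeq2 called 2 in iNKT1-like cells (Sh2d1a and Dok2) and 0 elsewhere. Zap70, whose product binds phosphorylated zeta, was at 311 and 271 CPM against 426 and 307 CPM in stage 0-like cells (log2 0.33, SE 0.18, adjusted p 0.689), and these groups overlapped. Of 6 genes of protein folding in the endoplasmic reticulum, where the complex is assembled, 0 were called by either tool. At an unadjusted p under 0.05 there were 5 of the 6 in iNKT17-like cells, where 5.63% of all genes were, and 2 or 3 in each other class, where 8.54% to 17.8% were. Of 8 genes of other receptor chains and receptor assembly, 1 to 4 had enough counts to be tested in a class, and 0 were called by either tool, with up to 2 at an unadjusted p under 0.05.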

How the data were processed

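The deposited values were raw counts of UMIs per gene and barcode without normalization, for which the authors ran Cell Ranger 3.1.0 against mm10 (the submitters' processing notes also name Seurat 3.1.4). Cells were kept with 500 to 4100 genes, at least 1000 UMIs and under 6% mitochondrial UMIs. Doublet scores (Scrublet in scanpy 1.11.5, Python 3.11.15) marked 0 to 5 cells per library. Whether the caller had worked cannot be told from these counts, and no cells were removed on its calls. Cells were clustered with Seurat 5.3.0 (R 4.3.3) at resolution 0.8, on 2000 variable genes and 30 principal components (irlba 2.3.5.1), after correction between libraries by mutual nearest neighbours (20 neighbours, RANN 2.6.2, own code). The members, all TCR segments, Hivep3, 26 genes of the study and 6 genes of sex were left out of the variable genes. A cluster was named "-like" with at least 3 listed markers among its 100 genes of highest fold (pseudocount 10 CPM) and at least 1 among the top 10, a rule set after the data were seen. Names were rebuilt here, and differences from the study can arise from that.

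Since cells are not replicates, UMIs were summed per library and class. The 4 libraries were compared as 2 C57BL/6 against 2 Hivep3-/- with edgeR 4.0.16 (filterByExpr, TMM, two-sided quasi-likelihood test, Benjamini-Hochberg over all genes of the class, called at an adjusted p under 0.05). DESeq2 1.42.0 was an alternative. The p-values of the genotype tests rest on the spread between these mice together with a spread that edgeR shares over genes. Those of the interaction rest on the spread of classes within libraries, since library is a block. Sums held 775828 to 19114285 UMIs, and counting error shrinks with depth. The code was tested on simulated data. Ratios had a two-sided exact permutation test. Genes named are the 7 members, the 5 genes most correlated with each of Cd247, Cd3e and Trac, and list genes called in a class. Named as well were Zap70, Lck, Lat, Cd8b1 and Hcst, called in no class, and Sh2d1a and Dok2, called by DESeq2 alone. Hivep3, Xist and lead genes of clusters were named to describe libraries and clusters. Members and lists were chosen with earlier results of these data known. Fewer expressing cells and less RNA per expressing cell cannot be told apart in summed levels.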

Additional observations from a re-analysis of the deposited data

Results flagged for a closer look

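For 4 members the genotype difference depended on stage by the test of all 4 genotype by class terms together, with library as a block (edgeR's quasi-likelihood F test, Benjamini-Hochberg adjustment). Trac had an adjusted p of 0.00141, with a genotype difference of 0.54 on the log2 scale in stage 0-like cells and -0.21 in iNKT1-like cells. Cd3e had an adjusted p of 0.00239, with differences of 0.57 and 0.09 in the same classes. Trbc2 had an adjusted p of 0.00627, with 0.65 and 0.03, and Trbc1 had an adjusted p of 0.00687, with 0.76 and 0.20. The test passed 9.61% of all genes. Clusters within the iNKT1-like class changed in share with genotype, and the part of that shift in these results was not tested. The joint tests of Cd3e, Trbc1 and Trbc2 each lost the call without 1 or other C57BL/6 library, those of Trbc1 and Trbc2 also with no correction between libraries, and in both C57BL/6 libraries few UMIs stood behind the stage 0-like values of Trac (174 and 148).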

How the results depend on the processing

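The Cd247 difference was positive in every class under every alternative run (edgeR or DESeq2, n = 2 per genotype or fewer), and it was called in 13 of 17 alternatives for stage 0-like cells, 16 of 17 in the cycling-like class, 16 of 16 for iNKT2-like cells, 15 of 16 in iNKT17-like, 13 of 17 in iNKT1-like cells and 4 of 12 over all cells (adjusted p 2.15e-05 to 0.166, 1.11e-09 to 0.0711, 1.14e-17 to 0.0184, 3.09e-08 to 0.0705, 2.92e-08 to 0.138 and 6.12e-07 to 0.212). The number of members called in stage 0-like cells, 0 in the results above, was 1 with DESeq2, at resolution 0.4 and 1.2, with no correction between libraries, under the wider cell filter, with the highest doublet scores removed, without double positive thymocyte-like cells (chosen after seeing the data) and with cells thinned to 2000 UMIs, and 4 with no low-count filter. Leaving out a library gave 1 to 4 in stage 0-like, 1 to 2 in iNKT2-like (the second was Trac, without C57BL/6 replicate 2), 0 to 0 in iNKT1-like cells (whichever library was left out) and, for the interaction, 2 to 4. Where 1 library was left, it was assumed to vary like the other genotype. No low-count filter gave 2 members in cycling-like cells, thinning gave 0 in iNKT17-like cells, and over all cells 1 was called with DESeq2, with no low-count filter and under the wider cell filter. Causes of these changes were not tested.

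The log2 difference of Cd247 per Cd3e in stage 0-like cells (0.47) was 1.07 with no correction, 0.88 under the wider filter, 0.84 after thinning and 0.78 per UMI of Cd3e, Cd3d and Cd3g together. In cycling-like cells (0.80) it was 0.57 at resolution 1.2, 0.98 in the largest cluster alone and 0.99 per 3 chains, in iNKT2-like cells (1.14) 1.35 per 3 chains, and in iNKT1-like cells (0.89) 1.11 in the largest cluster alone and 0.95 per 3 chains. Without scaling, the median log2 difference of all genes moved to 0.143 (stage 0-like), 0.185 (cycling-like cells), 0.112 (iNKT2-like) and, over all cells, 0.12 (0.017 to 0.027 with TMM), and in cycling-like cells Cd3d and Cd3g turned to 0.13 and 0.12, below that median. Cd3g was 0.082 in the largest cycling-like cluster, and Trac was -0.17 in iNKT17-like cells after thinning.

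With a library left out, 10 uncalled TCR differences changed sign and moved by more than 1 SE, 9 of them without C57BL/6 replicate 1 and Trac in iNKT1-like cells without C57BL/6 replicate 2. Trac ran from -0.13 to 0.31 in iNKT17-like, from -0.57 to 0.28 in iNKT1-like cells and from -0.30 to 0.79 over all cells. Trbc1 ran from -0.21 to 0.64 in iNKT2-like and from -0.15 to 0.69 in iNKT1-like cells. Trbc2 ran from -0.36 to 0.69 in cycling-like, from -0.30 to 0.73 in iNKT2-like, from -0.28 to 0.74 in iNKT17-like, from -0.42 to 0.72 in iNKT1-like cells and from -0.24 to 0.67 over all cells. Sign changes within 1 SE of the value above were seen for Trbc1 in iNKT17-like cells (0.08 without C57BL/6 replicate 2, 0.06 without Hivep3-/- replicate 2 and 0.05 without scaling), for Trbc2 without Hivep3-/- replicate 1 (-0.07 for iNKT17-like cells, -0.001 for the iNKT1-like class) and for other values near 0.

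Both genotypes carry replicate numbers 1 and 2, which give only 2 pairs, and deviations of same-numbered libraries correlated at 0.119 to 0.164 in the 5 classes and 0.001 over all cells. With the number as a replicate block, 3 members were called in stage 0-like cells (Cd247, Cd3e and Trbc1), 1 in each other class and 1 over all cells. All genes called were 171, 421, 205, 15, 100 and 212 with the block against 42, 301, 38, 8, 81 and 94 without it (stage 0-like, cycling-like, iNKT2-like, iNKT17-like, iNKT1-like and all cells). Over all alternatives these counts ran from 13 to 313, 149 to 1077, 21 to 358, 3 to 130, 32 to 556 and 14 to 965, and for the interaction from 332 to 1637 (1058 in the results above). In cycling-like cells 50.5% of calls were higher with TMM and 68.4% without scaling, and in iNKT17-like cells 62.5% with TMM and 50% with RLE. Depth limits stage 0-like cells most, where Cd247 had 82 UMIs in C57BL/6 replicate 2.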

Other observations

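At resolution 1.2 a cluster of 141 double positive thymocyte-like cells appeared, of which 33 had been in the stage 0-like class. Cd247 in it was at 393 and 1020 CPM in C57BL/6 replicates 1 and 2 and at 643 and 939 CPM in Hivep3-/- replicates 1 and 2, on 114 UMIs in all. Without these cells the Cd247 difference in stage 0-like cells was 1.05 on the log2 scale (edgeR adjusted p 0.0445), a setting chosen after seeing the data. Summed double positive thymocyte markers in stage 0-like cells were 119 and 111 CPM in C57BL/6 and 111 and 160 CPM in Hivep3-/- libraries.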
